A study of Mus musculus with 57 samples.

Results

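Genes of the B lymphocyte lineage were followed in bulk RNA-seq of mouse liver. The 7 genes are Cd79a, Cd79b, Ms4a1, Ighm, Igkc, Jchain and Mzb1, chosen by symbol, and all 7 were found among the 54307 genes of the table. The 57 livers came from male wild-type C57BL/6JJcl mice, aged 6 weeks before 1 week of acclimatisation, fasted for 12 h and killed 24 h after dosing. By gavage, 13 mice received 0.5% methylcellulose (Ctrl), 4 alpha-naphthyl isothiocyanate (ANIT), 6 acetaminophen (APAP), 7 4,4'-methylene dianiline (MDA) and 5 thioacetamide (TAA). By the intraperitoneal route, 2 mice received 0.9% saline (CIP), 7 carbon tetrachloride (CCl4) and 4 galactosamine (GAL), and by the intravenous route 2 received 0.9% saline (CIV) and 7 the plant lectin concanavalin A (ConA). Each compound was set against the vehicle of its route and against all 17 vehicle mice. No control received corn oil, which the labels also name as a vehicle. For a compound dissolved in it, compound and vehicle cannot be told apart. The labels give no dose in mass for any compound. The livers had been perfused, and each library is a whole-tissue sample in which fewer cells of a type and less RNA per cell cannot be told apart.

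B cells sense antigen through a membrane immunoglobulin. Its IgM heavy chain is encoded by Ighm and its kappa light chain by Igkc, and CD79A and CD79B are the signalling chains attached to it. Ms4a1 encodes the surface protein CD20, which is lost when a B cell becomes an antibody-secreting plasma cell. Plasma cells make large amounts of immunoglobulin. Jchain encodes the chain that joins IgM and IgA into polymers, and Mzb1 encodes a chaperone of the endoplasmic reticulum that helps assemble them and is also made by plasmacytoid dendritic cells. In a healthy liver, B cells are one of several lymphocyte populations in the sinusoids.

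RefSeq promoter windows (GRCm38.p6) were searched with a single chromosome left out, and they covered 2 of the 7 genes, Cd79a and Jchain. Cd79a is shown because it had the largest rise of the 7 in one comparison and the largest fall in others. The run is the 134 bases on chr7:24897247-24897380 (plus strand, 5′ to 3′) that lie upstream of every annotated start of the gene. Capitals mark the only 2 of the searched B cell motifs found in it.
Cd79a: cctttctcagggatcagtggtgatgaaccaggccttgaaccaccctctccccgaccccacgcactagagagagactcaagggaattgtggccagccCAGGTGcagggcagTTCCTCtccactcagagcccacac
The 4 motifs were searched on both strands. CAGGTG is the E-box CACCTG read on the minus strand, beginning 154 bases before the RefSeq start, and TTCCTC is the core GAGGAA bound by the Ets factor PU.1, 140 bases before it. Neither is rare in windows of 300 bases: CACCTG occurred in 20.2% and GAGGAA in 28.3% of 32851 RefSeq windows. The octamer ATTTGCAT (1.74% of windows) and the EBF1 core CCCNNGGG (13.7%) were not in the windows of Cd79a or Jchain. These are matches of letters and were not tested as binding sites.

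The libraries held 13826343 to 35075809 estimated counts, and mitochondrial transcripts made up 5.11% to 39.3% of them. Levels are given in CPM, rounded estimated counts divided by the scaled library size, with scaling by the trimmed mean of M values (TMM). All 7 genes were scarce. Over all mice the median was 175 estimated counts for Igkc, 83.3 for Ighm, 17.1 for Cd79b, 11.1 for Cd79a, 4.67 for Jchain, 4.61 for Mzb1 and 1.01 for Ms4a1. Cd79a was at 0 in 4 mice, Ms4a1 in 12, Jchain in 2 and Mzb1 in 20. The hepatocyte markers Alb, Apoa1, Ttr and Apob were detected at 16274 CPM or more, summed, in every mouse. The plasma cell marker Tnfrsf17 was at 0 in 12 of 13 Ctrl mice and in all ANIT, APAP, MDA, TAA, CCl4 and saline mice. Gene models overlap Mzb1 (SPATA24, same strand), Igkc (Gm30211, same strand) and Ms4a1 (4930526L06Rik, opposite strand). Reads in these overlaps cannot be told apart, unless strand was used for Ms4a1, and the values of the 3 genes are uncertain to that extent.

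Among the signalling chains, Cd79a was lowest in the ANIT and MDA livers and highest in the TAA livers. In the 13 Ctrl mice it ranged from 0.216 to 1.06 CPM with a median of 0.481. The 4 ANIT mice stood at 0, 0, 0.161 and 0.214 CPM, and the 7 MDA mice ranged from 0 to 0.225 with a median of 0.11. The 5 TAA mice had 1.49, 2.46, 3.32, 3.89 and 3.96 CPM. Every ANIT mouse lay below every Ctrl mouse by a narrow margin, MDA touched the lower edge of the Ctrl range, and every TAA mouse lay above it. The APAP mice ranged from 0.294 to 1.61 CPM (median 0.655). The CIP mice had 1.13 and 1.28 CPM and the CIV mice 0.249 and 0.357, so that the saline pairs lay on opposite sides of the Ctrl median. The CCl4 mice ranged from 0.136 to 0.737 (median 0.592), the 4 GAL mice had 1.10, 1.34, 1.47 and 1.65, and the ConA mice ranged from 0.148 to 0.552 (median 0.317). CCl4 was entirely below CIP, while GAL and ConA overlapped their saline pairs.

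Cd79b followed a similar order with a smaller span. The Ctrl mice ranged from 0.539 to 1.99 CPM (median 0.966). ANIT mice had 0.122, 0.26, 0.321 and 0.356 CPM, all below Ctrl. In the 7 MDA mice the range was 0.0452 to 0.865 (median 0.293), and the TAA mice had 1.55, 2.01, 2.29, 2.60 and 3.08. MDA overlapped the lower part of the Ctrl range and TAA its upper part. APAP ranged from 0.077 to 2.31 CPM (median 0.978). The CIP mice had 1.16 and 1.51, the CIV mice 0.592 and 1.04, and the GAL mice 0.979, 1.07, 1.26 and 2.11. CCl4 ranged from 0.227 to 0.958 (median 0.615) and ConA from 0.103 to 1.16 (median 0.816). The ratio of Cd79a to Cd79b, computed per mouse from rounded counts, had a median of 1.08 in TAA (0.96 to 1.97) and 0.471 in Ctrl (0.25 to 1.17). Over all groups the median ran from 0.25 in ANIT to 1.17 in GAL (0.695 to 1.37), with 0.912 in CIP (0.85 to 0.974). This is a description with no test.

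Ms4a1 was at the limit of detection. In 37 of the 57 mice it had under 3 estimated counts, and no mouse exceeded 0.324 CPM. Group means ran from 0.186 CPM in TAA and 0.182 in GAL down to 0.0343 in ConA, 0.0194 in MDA and 0 in ANIT, whose 4 mice held at most 0.277 estimated counts. Ctrl mice ranged from 0 to 0.303 CPM. The gene never passed the filter on low counts in a route comparison, and no fold is given for it.

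Of the immunoglobulin chains, Ighm was lowest in ANIT (0.712, 0.883, 1.34 and 1.44 CPM) and MDA (0.173 to 2.41, median 1.72). All of these mice were below the Ctrl range of 2.82 to 7.18 CPM (median 4.65). TAA mice had 8.25, 8.40, 8.45, 9.18 and 12.0 CPM, all above it. APAP ranged from 1.40 to 12.3 CPM (median 4.83), past both ends of the Ctrl range. The CIP mice had 4.22 and 7.61, the CIV mice 4.99 and 5.03, and the GAL mice 4.31, 4.61, 6.15 and 8.23. CCl4 ranged from 1.70 to 7.05 (median 2.77) and ConA from 4.68 to 9.72 (median 7.54), both overlapping their saline pairs.

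Igkc had the most estimated counts of the 7, and a vehicle group stood highest. The CIP mice had 16.5 and 20.1 CPM, against a Ctrl range of 4.26 to 13.9 (median 6.60) and 6.39 and 8.27 in CIV. TAA mice had 14.6, 15.8, 16.1, 16.1 and 17.2, all above Ctrl. ANIT mice had 3.16, 3.49, 3.58 and 4.38, of which 1 reached into the Ctrl range. MDA ranged from 3.47 to 9.66 (median 4.24), APAP from 4.31 to 17.7 (median 8.84) and CCl4 from 2.53 to 12.3 (median 6.08). The GAL mice had 10.5, 14.9, 15.3 and 18.0 CPM, and ConA ranged from 6.87 to 21.7 (median 12.2). The ratio of Igkc to Ighm had a median of 3.67 in ANIT (2.19 to 4.90) and 1.58 in Ctrl (0.994 to 2.94). Over all groups its median ran from 1.46 in CIV to the 3.67 in ANIT, with 3.28 in CIP (2.64 to 3.91). This is a description of these 2 genes with no test.

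The plasma cell genes were scarcer than Ighm and Igkc. Jchain group means lay between 0.104 CPM (APAP) and 0.470 (CIP), and every treated group overlapped its route vehicle. Mzb1 varied widely between mice of a group. Ctrl mice ranged from 0 to 0.729 CPM. In MDA the 7 mice had 0, 0, 0.229, 0.899, 2.06, 3.29 and 3.96 CPM, so that 4 exceeded every Ctrl mouse and 2 were at 0. In ConA a single mouse had 9.79 CPM and 5 of 7 were at 0, and in APAP a single mouse had 2.94.

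**Figure D1:**
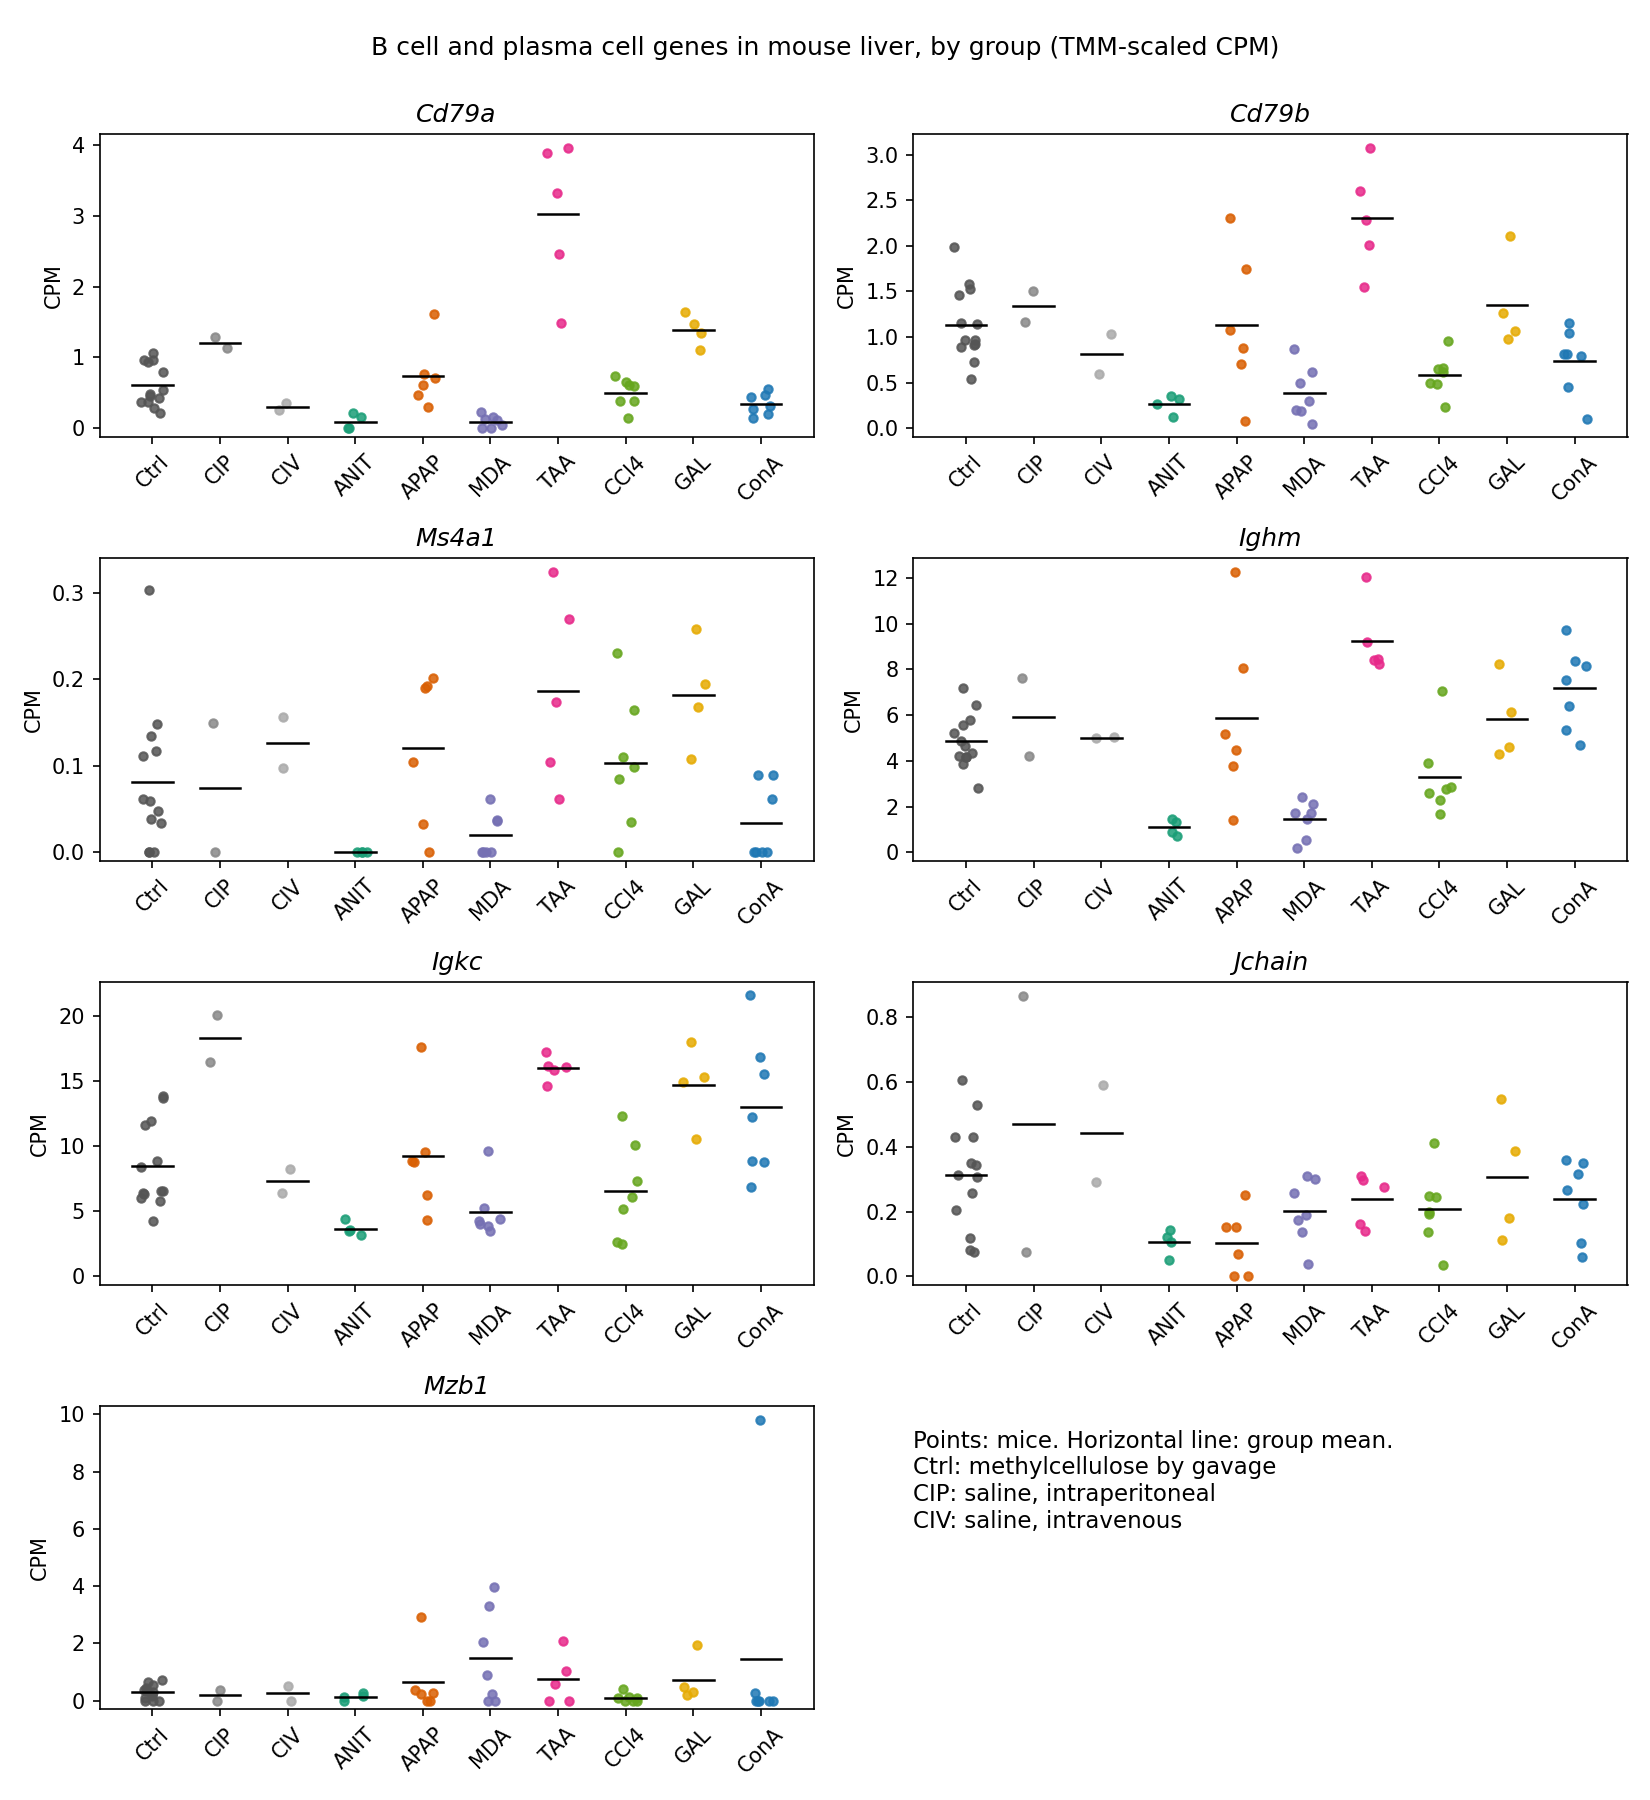
Level of each gene (y axis, CPM on a linear scale from 0) in each mouse (points) of the 10 groups (x axis), with group means as lines. Cd79a in the 5 TAA mice lies between 1.49 and 3.96 CPM, above the highest Ctrl mouse at 1.06, and Ighm in ANIT and MDA lies below the lowest Ctrl mouse at 2.82.

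Ordered by mean CPM, Cd79a ran TAA, GAL, CIP, APAP, Ctrl, CCl4, ConA, CIV, MDA, ANIT, and Cd79b TAA, GAL, CIP, Ctrl, APAP, CIV, ConA, CCl4, MDA, ANIT. Ighm ran TAA, ConA, CIP, APAP, GAL, CIV, Ctrl, CCl4, MDA, ANIT, and Igkc ran CIP, TAA, GAL, ConA, APAP, Ctrl, CIV, CCl4, MDA, ANIT. ANIT and MDA closed the order in these 4 genes. In a single edgeR fit over all groups, neighbours in each order were compared with adjustment over all genes tested. The step from CCl4 (3.31 CPM) to MDA (1.45 CPM) in Ighm passed, with an adjusted p of 0.00597. No other neighbouring pair of the 6 genes tested passed. CIV and MDA, neighbours in Cd79a, did not overlap but had an adjusted p of 0.186. For TAA and GAL, the top of the Cd79a order, the adjusted p was 0.134.

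In the TAA livers, transcripts of the B cell receptor rose together. Cd79a was 5.16-fold higher than in Ctrl (log2 fold change 2.37 ± 0.31 SE, adjusted p = 3.88e-06, edgeR's quasi-likelihood test throughout). The log2 fold change was 1.05 ± 0.24 for Cd79b (adjusted p = 0.00118), 0.96 ± 0.17 for Ighm (8.81e-05) and 0.94 ± 0.23 for Igkc (0.00183). Mzb1 had a value of 1.34 ± 0.85 (adjusted p = 0.204; 0.49 without TAA mouse 6) and did not pass. Thus 4 of 5 members tested were higher, where 26.4% of all genes tested were called higher and 50.5% were called in either direction. Their median log2 fold change was 1.05, against 0.03 over all genes tested. In Cd79a, Ighm and Igkc every TAA mouse exceeded every Ctrl mouse, which held for 10.2% of all genes. Against all 17 vehicle mice the same 4 genes were higher, with 25.2% of all genes called higher. Igkc then overlapped the controls, with the CIP mice at 16.5 and 20.1 CPM. Among mice numbered above 4 the 4 genes were called again, 4 of 6 tested beside 47.4% of all genes called. Among those numbered 1 to 4 (2 TAA mice) Cd79a alone was called, at 1.78 (adjusted p = 0.0473), 1 of 4 tested beside 19.4%. With the replicate number as a block, Cd79b (adjusted p = 0.0920) and Igkc (0.0636) lost the call, beside 36.2% of all genes called.

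Other B lineage genes were read from a list of 55. In TAA, 28 were tested, 7 rose and 2 fell, 9 of 28 beside the 50.5% of all genes. For all genes 26.4% were called higher, so the list was not called more often than all genes. On the surface list, the genes that rose included the kinase Blk (3.10 ± 0.70), the tetraspanin Cd37 (1.03 ± 0.25) and the IgM Fc receptor Fcmr (1.504 ± 0.602). Ighd, the heavy chain of IgD on naive B cells, rose from 0.653 to 2.44 CPM (1.94 ± 0.35, adjusted p = 0.000139). Ccr7, the lymph node homing receptor shared with T cells and dendritic cells, rose from 0.166 to 1.67 CPM (3.27 ± 0.41). For both, every TAA mouse was above every Ctrl mouse. Sdc1 and Pigr, which hepatocytes and biliary cells also express, were the 2 that fell, and Xbp1, a transcription factor of secretory cells including hepatocytes, rose as well.

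Blood cell transcripts moved with the TAA livers. The erythroid markers Hba-a1, Hbb-bs and Alas2 summed to 2162 to 3887 CPM, against 80.0 to 283.6 in Ctrl, with 2 of 3 called higher and 1 lower. Neutrophil markers were called higher in 4 of 4 tested (sum 154 to 791 CPM, against 0.666 to 49.4), and platelet markers in 2 of 2. In this comparison 50.5% of all genes were called and 26.4% were called higher. Of the T cell markers, 0 of 4 tested were called, with sums of 1.62 to 4.81 CPM in TAA and 1.12 to 7.04 in Ctrl. The 1 NK cell marker tested was lower (sum 0.278 to 1.05 CPM, against 0.430 to 3.36 in Ctrl). The part of blood retained in the tissue in the rise of the B cell genes was not tested. In ConA the erythroid sum was 984 to 5214 CPM, with Cd79a at 0.148 to 0.552 CPM, Ighm at 4.68 to 9.72 and Igkc at 6.87 to 21.7.

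**Figure D2:**
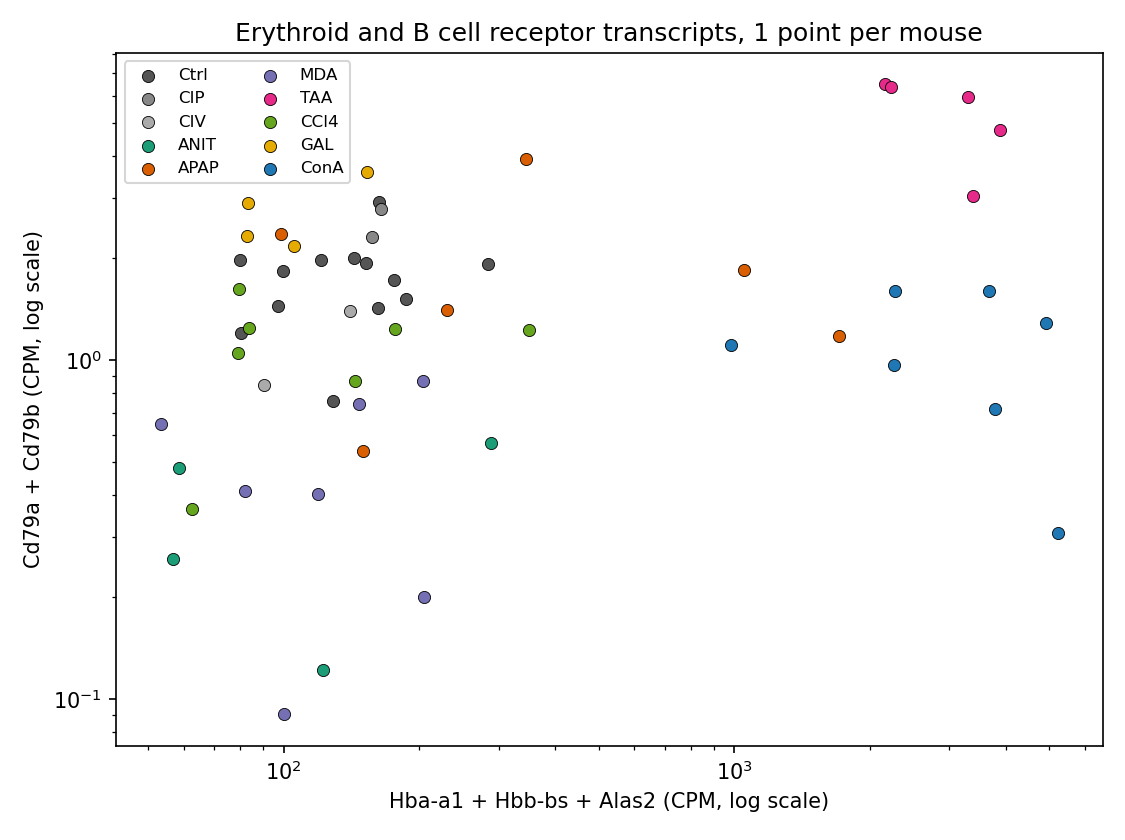
Sum of Cd79a and Cd79b (y axis, CPM, log scale) against the sum of the erythroid markers Hba-a1, Hbb-bs and Alas2 (x axis, CPM, log scale), 1 point per mouse, coloured by group. TAA and ConA mice share the right side of the plot, with Cd79 sums of 3.04 to 6.49 CPM in TAA and 0.309 to 1.602 in ConA.

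ANIT had the opposite direction. Cd79a was 6.27-fold lower than in Ctrl (log2 fold change -2.65 ± 0.71, adjusted p = 0.00983; -3.32 without ANIT mouse 1), from a median of 11.3 estimated counts in Ctrl to 1.37. For Cd79b the value was -2.09 ± 0.37 (adjusted p = 0.000469), for Ighm -2.14 ± 0.26 (1.34e-05) and for Igkc -1.22 ± 0.30 (0.00523). All 4 members tested were lower, where 14.2% of all genes were called lower and 28.2% in either direction, and the median was -2.11 against -0.01 over all genes. Ms4a1, Jchain and Mzb1 did not pass the filter. In Cd79a, Cd79b and Ighm the groups did not overlap, which held in this direction for 4.93% of all genes. With the saline mice added to Ctrl, Jchain was tested too and was lower (-1.69 ± 0.61, adjusted p = 0.0429), making 5 of 5, beside 14.5% of all genes. All ANIT mice carry numbers from 1 to 4. Set against the 4 Ctrl mice with those numbers, Cd79b (-1.82), Ighm (-2.36) and Igkc (-1.09) were called, 3 of 3 tested beside 13.7% of all genes. Cd79a did not pass the filter there.

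Of the 55 further genes, 24 were tested in ANIT, 3 rose and 7 fell, where 28.2% of all genes were called and 14.2% were lower. With the number range as a covariate 1 of 24 was lower and 3 were higher, beside 19.1% of all genes called. Within numbers 1 to 4, 0 of 13 were lower and 2 higher, beside 13.7%. Constant regions of other immunoglobulin classes fell in 4 of 5 tested: the lambda chains Iglc2 (-3.13 ± 0.93) and Iglc3 (-3.68 ± 1.22), Ighd (-2.68 ± 0.90) and the IgA heavy chain Igha (-1.65 ± 0.39). The B cell adaptor Blnk and the surface protein Cd180, which macrophages also express, fell as well. Kupffer cell markers were lower in 1 of 4 (sum 142 to 197 CPM in ANIT, 147 to 178 in Ctrl mice numbered 1 to 4 and 238 to 409 in the other Ctrl mice), and their part in the Cd180 value was not tested. Among plasma cell genes, Derl3 rose from 3.86 to 44.98 CPM (3.54 ± 0.50) and Xbp1 from 131 to 334 CPM (1.34 ± 0.14), with every ANIT mouse above every Ctrl mouse. Sdc1, the third called of the 5 tested, fell by 0.56 on the log2 scale. Derl3 and Xbp1 belong to the unfolded protein response, which also operates in hepatocytes, and are not specific to plasma cells. Cxcl13, the chemokine that attracts B cells into follicles, was the third that rose (1.82 ± 0.58, adjusted p = 0.0259), with ranges that overlapped. T cell markers were called in 0 of 3 tested (sum 0.749 to 2.91 CPM, against 1.12 to 7.04 in Ctrl), and the erythroid sum was 57.0 to 289 CPM. Cholangiocyte markers were lower in 2 of 4 (sum 15.1 to 32.9 CPM, against 22.1 to 101 in Ctrl). Neutrophil markers were higher in 1 of 3 tested (sum 13.7 to 44.9 CPM, against 0.666 to 49.4). The single NK cell marker tested, Gzma, was lower (-2.13), and it was also lower in Ctrl mice numbered 1 to 4 than in the other Ctrl mice (-2.38). In that comparison of Ctrl mice 3 of 4 Kupffer cell markers were lower. None of the 5 plasmacytoid dendritic cell markers passed the filter.

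In the MDA livers the same 4 receptor and immunoglobulin genes were lower. The log2 fold change was -2.47 ± 0.48 for Cd79a (adjusted p = 0.000471), -1.5995 ± 0.376 for Cd79b (0.00237), -1.71 ± 0.31 for Ighm (0.000203) and -0.75 ± 0.25 for Igkc (0.0235). They are 4 of 5 tested, where 16.4% of all genes were called lower and 33.8% in either direction, with a median of -1.5995 against 0.03. Ighm did not overlap Ctrl, as was true in this direction for 3.07% of all genes. Against all 17 vehicle mice the 4 genes were again lower, beside 17.1% of all genes. Igkc lost the call without MDA mouse 3 or 8 (adjusted p = 0.0524 and 0.0545) and with library totals in place of TMM (0.0619). Within numbers 1 to 4 only Ighm was called (-2.18), 1 of 3 tested beside 10.4% of all genes. Within numbers above 4 Cd79b (-1.89) and Ighm (-1.35) were called, 2 of 6 tested beside 20.6%. ANIT and MDA were compared with the same Ctrl mice.

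Mzb1 went the other way in MDA, with a log2 fold change of 2.32 ± 0.77 (adjusted p = 0.0226), where 17.4% of all genes were called higher. The call rested on few mice. It was lost without MDA mouse 1 (adjusted p = 0.0761) or 12 (0.0727), without the filter (0.0557), in the fit over all groups (0.0959) and within numbers above 4 (0.130). Without Ctrl mouse 15, 16 or 17 the gene did not pass the filter, and without Ctrl mouse 8, 10, 15, 16 or 18 Cd79a did not, so that 3 members were called without mouse 15 or 16. Jchain, the other gene of IgM polymers, was not tested in MDA. The plasmacytoid dendritic cell markers had sums of 0.124 to 1.42 CPM in MDA and 0.269 to 1.06 in Ctrl, and none passed the filter.

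In MDA, 21 of the 55 further genes were tested, with 2 higher and 8 lower, where 33.8% of all genes were called and 16.4% were lower. Within numbers 1 to 4, 0 of 12 were called, beside 10.4% of all genes, and within numbers above 4, 2 of 26 were higher and 3 lower, beside 20.6%. The inhibitory receptors Cd22 (-1.51 ± 0.35) and Cd72 (-1.59 ± 0.39), the constant regions Ighd (-2.78 ± 0.56), Iglc2 (-2.002 ± 0.652) and Iglc3 (-2.45 ± 0.87) and the transcription factor Bach2 (-1.33 ± 0.48) were lower. Sdc1 and Pigr completed the 8. Xbp1 (0.45 ± 0.09) and Tent5c (0.81 ± 0.23), an enzyme that stabilises secretory transcripts in plasma cells, were higher. All of these overlapped Ctrl. T cell markers were called in 0 of 2 tested against Ctrl (sum 0.749 to 3.32 CPM) and lower in 2 of 3 against all vehicle mice, where the 1 NK cell marker tested was lower too. Neutrophil markers were higher in 2 of 3 tested against Ctrl (sum 6.57 to 118 CPM), and Kupffer cell markers lower in 1 of 4 (sum 136 to 262 CPM, against 147 to 409). The part of these cells in the values of the B lineage genes was not tested.

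APAP gave no call among the members. The log2 fold changes were 0.34 ± 0.37 for Cd79a, 0.03 ± 0.37 for Cd79b, 0.30 ± 0.29 for Ighm and 0.14 ± 0.27 for Igkc (adjusted p from 0.467 to 0.965). This is 0 of 4 tested, where 31.8% of all genes were called, and 0 of the 4 at an unadjusted p under 0.05, beside 41.7%. The count against all vehicle mice was also 0 of 4, beside 33.4%. Jchain, which did not pass the filter here, was called lower with DESeq2 and in the fit over all groups. It was the only member called, 1 of 7 tested with DESeq2 (28.1% of all genes called) and 1 of 6 in that fit (28.6%). APAP mouse 6 was highest in Cd79a, Cd79b, Ighm and Igkc, and without it their values were -0.0516, -0.30, -0.0597 and -0.15. The erythroid sum ranged from 98.7 to 1709 CPM in these mice, with 2 of 3 erythroid markers called higher and 1 lower. Neutrophil markers were higher in 3 of 3 tested (sum 11.0 to 256 CPM, against 0.666 to 49.4 in Ctrl) and platelet markers in 1 of 1. The part of these cells in the values of the B lineage genes was not tested. In the list of 55, 6 of 25 tested were higher and 2 lower. The higher ones were Derl3 (4.25 ± 0.78), Cxcl13 (2.29 ± 0.73), the survival factor Tnfsf13 (1.81 ± 0.56), Blnk, Xbp1 and the prolyl isomerase Fkbp11 of the secretory pathway, and the lower ones Cd22 and Pigr. All overlapped Ctrl.

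CCl4 was set against the 2 CIP mice, and Igkc alone was called. It was lower by a log2 fold change of -1.48 ± 0.50 (adjusted p = 0.0465), 1 of 5 members tested, where 33.5% of all genes were called and 15.6% were lower. Cd79a was at -1.27 ± 0.50 (adjusted p = 0.0805), Cd79b at -1.18 ± 0.44 (0.0651), Ighm at -0.85 ± 0.44 (0.175) and Jchain at -1.19 ± 0.83 (0.302). In Cd79a, Cd79b and Igkc all CCl4 mice were below both CIP mice, as in 18.5% of all genes. The Igkc call was lost without CCl4 mouse 1, 5, 8 or 10 or either CIP mouse. Without CCl4 mouse 11 Ighm was called beside Igkc, without mouse 12 Cd79b was, and without mouse 8 Cd79a was called in place of Igkc. Against all 17 vehicle mice the called genes were instead Cd79b (-0.97 ± 0.25, adjusted p = 0.00205) and Ighm (-0.64 ± 0.21, 0.0117), 2 of 4 tested beside 53.4% of all genes called and 27.2% called lower. Igkc was then at -0.58 ± 0.31 (0.118).

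Of the 55 genes, 29 were tested in CCl4, with 3 higher and 3 lower, where 33.5% of all genes were called, and all 6 separated from CIP, as did 22.1% of all genes upward and 18.5% downward. Derl3 rose from 1.14 to 33.8 CPM (4.87 ± 0.27), Fkbp11 from 32.3 to 250 CPM (2.94 ± 0.17) and Blnk from 0.495 to 1.57 CPM (1.63 ± 0.34). Derl3 and Fkbp11 serve protein folding in secretory cells of any kind. Igha fell from 4.85 to 1.13 CPM (-2.10 ± 0.58), and Pigr, the receptor that carries polymeric IgA into bile, from 310 to 109 CPM (-1.49 ± 0.29). Sdc1 fell by 0.74 on the log2 scale. Hepatocyte markers were lower in 3 of 4 in these livers, with sums of 16274 to 26018 CPM against 43544 and 50778 in CIP. Their part in the Pigr and Sdc1 values was not tested. Of 3 plasmacytoid dendritic cell markers tested 1 was higher (sum 3.20 to 6.27 CPM, against 0.567 and 2.41).

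GAL gave no call against CIP in 6 members tested, where 28.5% of all genes were called. The values were 0.14 ± 0.34 for Cd79a, -0.04 ± 0.43 for Cd79b, -0.10 ± 0.36 for Ighm, -0.38 ± 0.25 for Igkc, -0.75 ± 0.99 for Jchain and 1.72 ± 1.36 for Mzb1. The last 2 values moved with the CIP mouse left out: without CIP mouse 7 or 8 Jchain was at 1.93 or -1.55 and Mzb1 at 7.33 or 0.92. At an unadjusted p under 0.05 the count was also 0, beside 42.8% of all genes, and DESeq2 called 0. With all 17 vehicle mice as the control Cd79a was higher (1.06 ± 0.38, adjusted p = 0.0224), 1 of 6 beside 52.5% of all genes called and 25.1% called higher. The scaling matters here, since TMM factors were 1.599 to 1.776 in GAL: with library totals Cd79b, Ighm and Igkc changed sign, to 0.75, 0.66 and 0.38. In the list of 55, 1 of 36 tested was higher and 3 lower. Iglc1, a lambda constant region, rose from 0.263 to 1.64 CPM (2.67 ± 0.56). Fkbp11 (-3.05 ± 0.20), Bach2 (-1.94 ± 0.58) and Sdc1 (-1.10 ± 0.28) fell. Each separated from CIP, as did 28.2% of all genes upward and 23.9% downward. Against all 17 vehicle mice 0 of 6 immunoglobulin constant genes of the list were called, beside 52.5% of all genes. In the fit over all groups 0 of 47 further genes were called higher, beside 26.0% of all genes called in either direction. All 4 hepatocyte markers were lower in GAL.

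ConA, a T cell mitogen that causes immune hepatitis, gave no call against the 2 CIV mice. Ighm was at 0.54 ± 0.31 (adjusted p = 0.201), Igkc at 0.85 ± 0.44 (0.158) and Cd79b at -0.11 ± 0.68 (0.915), 0 of 3 tested where 34.2% of all genes were called, and 0 at an unadjusted p under 0.05, beside 44.7%. DESeq2 also called 0. Set against the 17 vehicle mice, Ighm was higher (0.61 ± 0.16, adjusted p = 0.00126), 1 of 4 beside 68.0% of all genes called and 34.3% called higher. TMM factors were 0.477 to 0.951 in ConA, and with library totals the Ighm value against CIV was -0.04. Cd79a against all vehicle mice was at -0.78 ± 0.38 (adjusted p = 0.0727). Mzb1 did not pass the filter against CIV. ConA mouse 11 held 109.7 estimated counts of it and 5 ConA mice were at 0, while the CIV mice had 0 and 15.7.

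Of the further genes, 23 were tested in ConA, 6 rose and 3 fell, where 34.2% of all genes were called, and all separated from CIV, as did 19.2% of all genes upward and 20.5% downward. Prdm1, which drives plasma cell differentiation and is also induced in activated T cells and macrophages, rose from 0.126 to 14.03 CPM (6.73 ± 0.77). Xbp1 rose from 105 to 575 CPM (2.48 ± 0.30), Derl3 from 0.53 to 7.19 CPM (3.78 ± 0.58) and Ccr7 from 0.174 to 5.605 CPM (4.98 ± 0.72). The size of the Derl3 rise depends on the control, since its mean over all vehicle mice was 3.14 CPM. The means of Xbp1 and Ccr7 over all vehicle mice were 128 and 0.184 CPM, near those in CIV. Tnfsf13b, which encodes the B cell survival factor BAFF made by myeloid cells, rose from 0.255 to 1.82 CPM (2.82 ± 0.75). Blnk was the sixth that rose (1.97 ± 0.54). Cd180 (-2.67 ± 0.43), Cd72 (-2.41 ± 0.47) and Fkbp11 (-1.84 ± 0.43) fell. Cd180 and Cd72 are also expressed by macrophages, and all 4 Kupffer cell markers were lower in ConA (sum 19.7 to 42.7 CPM, against 256 and 259 in CIV). Neutrophil markers were higher in 3 of 3 tested (sum 123 to 284 CPM, against 5.80 and 6.17 in CIV), and mitochondrial transcripts made up 14.6% to 39.3% of the ConA libraries, against 6.79% and 25.4% in CIV. The part of these in the values of the further genes was not tested.

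**Figure D3:**
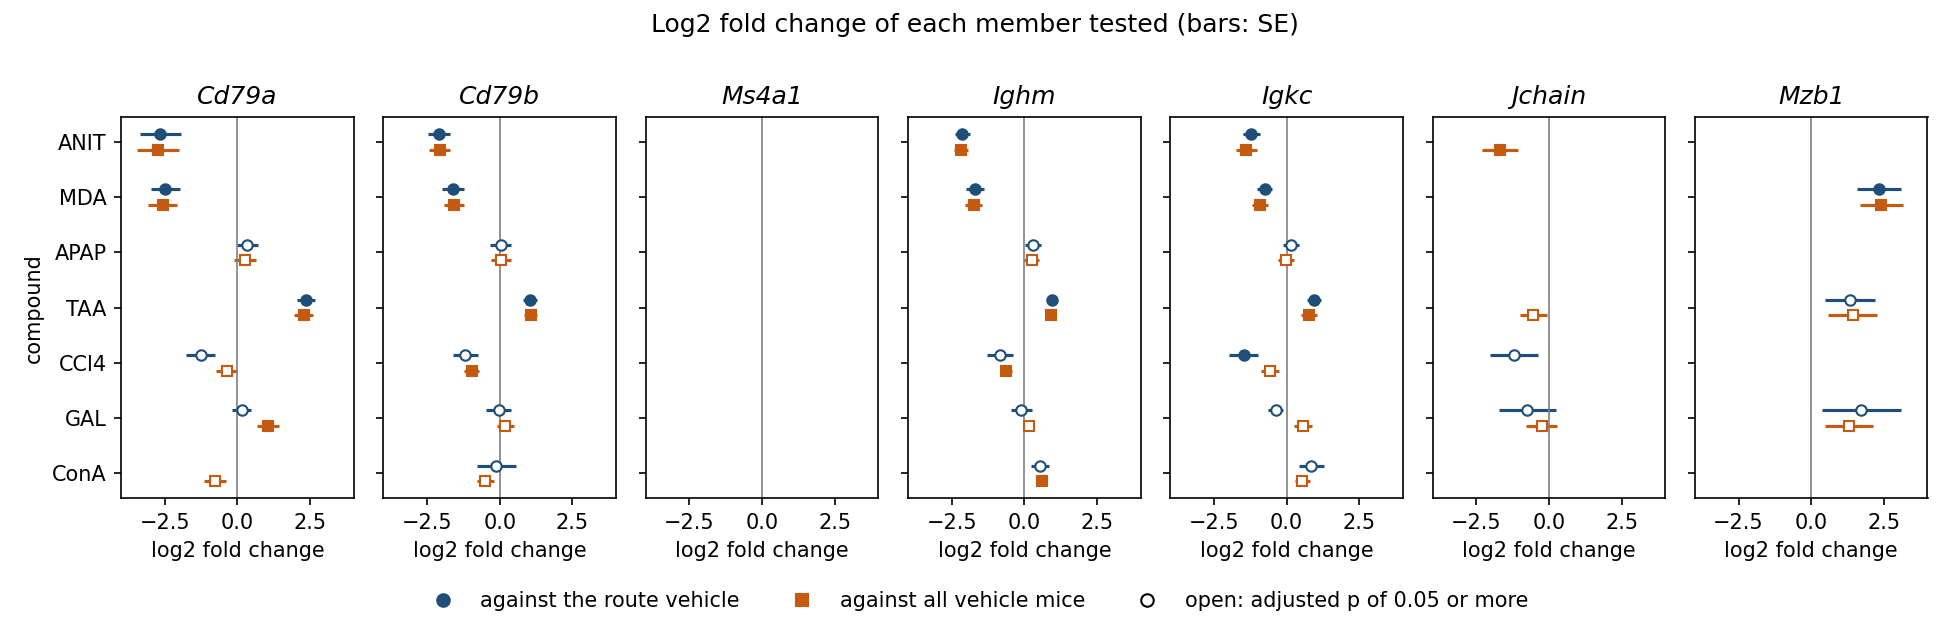
Log2 fold change (x axis) of each gene that passed the filter, by compound (y axis), against the route vehicle (circles) and all 17 vehicle mice (squares), with SE bars and filled symbols for an adjusted p under 0.05. Cd79a lies at -2.65 in ANIT and 2.37 in TAA, and Mzb1 in MDA lies at 2.32 on the opposite side of the other members.

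**Figure D4:**
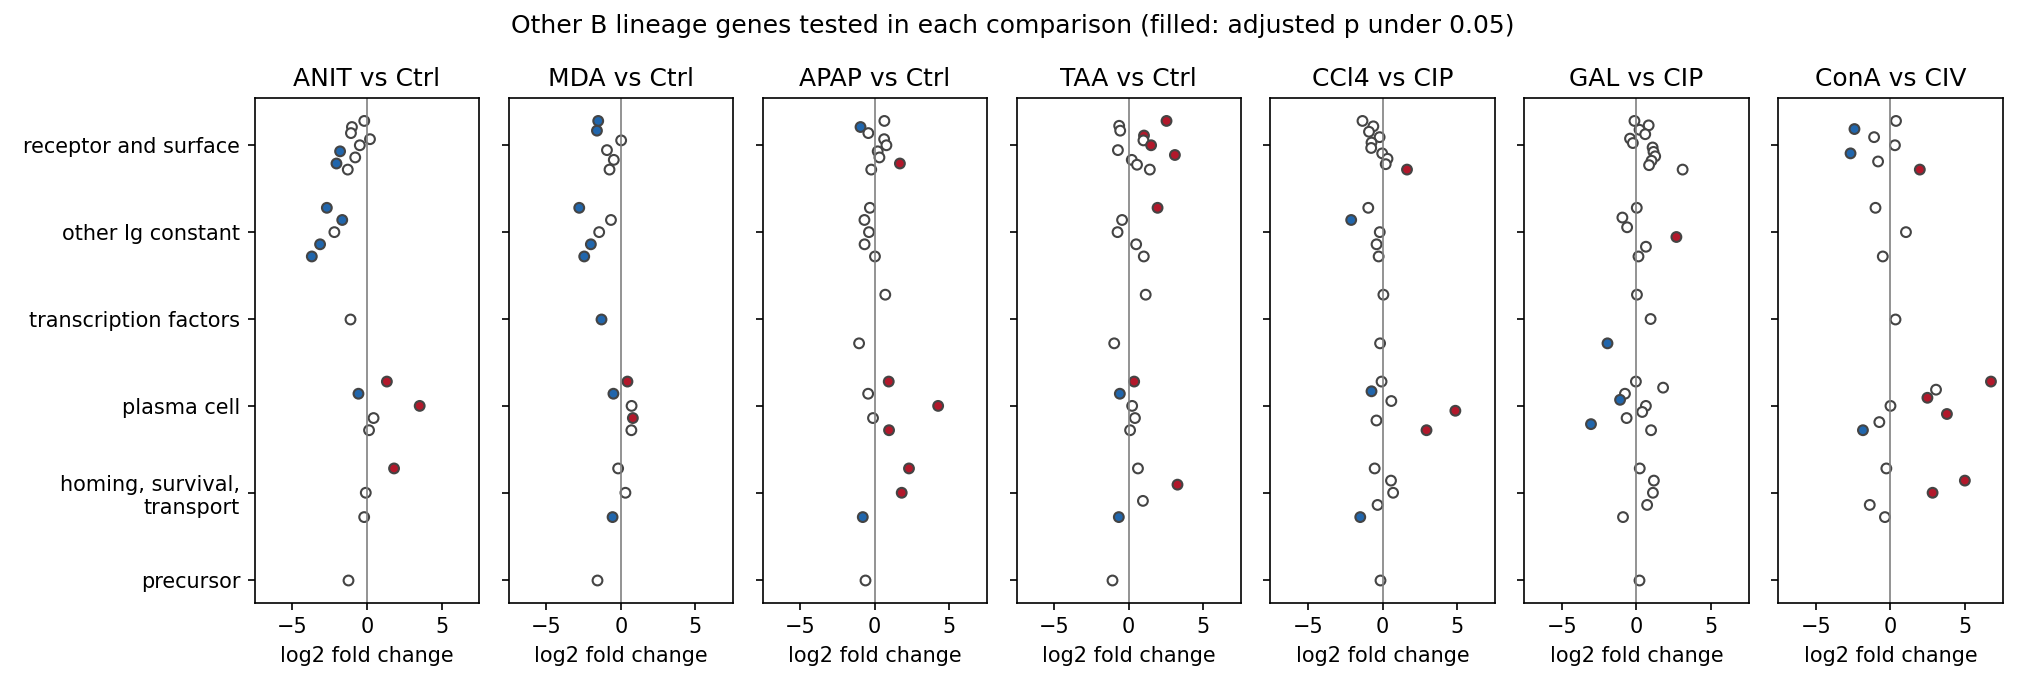
Log2 fold change (x axis) of the other B lineage genes tested in each route comparison, grouped by list (y axis), with called genes filled red (higher) or blue (lower). Other immunoglobulin constant genes are lower in ANIT (4 of 5 tested, beside 14.2% of all genes) and MDA (3 of 5, beside 16.4%), though within mice numbered 1 to 4 no gene of the list is called lower in either (13 and 12 tested, beside 13.7% and 10.4% of all genes called), and the plasma cell list holds called genes in both directions.

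Vehicles given by different routes did not differ by a call in the members. CIP against Ctrl gave 0 of 6 tested, where 0.0131% of all genes were called, and CIV against Ctrl 0 of 6, beside 0.0263%. Igkc in CIP had the largest difference relative to its error, 1.11 ± 0.34 on the log2 scale with an unadjusted p of 0.00529 (adjusted p = 0.935), and 1 of 6 members in CIP was under 0.05 unadjusted, beside 3.75% of all genes. In CIV 0 of 6 were, beside 3.82%. DESeq2 called 0 members in both. Both CIP mice exceeded all Ctrl mice in Cd79a and Igkc, as in 0.782% of all genes. With 2 mice a group, CCl4 and GAL values against CIP carry this level. The 4 Ctrl mice numbered 1 to 4 did not differ by a call from the 9 others in the 4 members tested, beside 2.33% of all genes, and 0 were under 0.05 unadjusted, beside 14.8%. DESeq2 called 0. Cd79a was at 0.69 ± 0.40 and Igkc at -0.19 ± 0.32 in that comparison.

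Variation within groups was described across mice. After each group's mean was subtracted from log2(CPM + 1), Cd79a, Cd79b and Ms4a1 were averaged into one profile over the 57 mice and Ighm, Igkc, Jchain and Mzb1 into another. With their own profile, which they are part of, members had a Spearman's rho of 0.579 to 0.798 in the first and 0.503 to 0.753 in the second. With the first profile, Igkc had a rho of 0.435, Ighm of 0.352, Jchain of 0.109 and Mzb1 of 0.0523. With the second, Ms4a1 had 0.474, Cd79b 0.322 and Cd79a 0.296. Among 12370 other genes, the highest rho with the first profile was 0.517 (Gnat2), followed by Aph1c, Gm15421, Znrd1 and Zscan22 (0.470). With the second it was 0.544 (Acap1), followed by Fxr2, Emc1, Gm45808 and Ankzf1 (0.502). These mice share scaling and low depth, and the values are a description with no test.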

How the data were processed

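Livers of 57 mice were profiled with TruSeq stranded mRNA libraries read single-end, per the labels' protocols. The authors deposited estimated counts per Ensembl gene. The submitters' processing notes name Salmon 1.6.0, R 4.1.3 and GRCm39, with no role or order. The smallest deposited values differ between genes, so the estimated counts are not whole reads and no counting intervals were computed. Symbols came from a GENCODE M21 table, which matched 51482 IDs. Groups came from the sample descriptions.

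Estimated counts were rounded and tested with edgeR 4.0.16 (R 4.3.3): TMM, filterByExpr, quasi-likelihood F test, two-sided, 2 groups per fit, Benjamini-Hochberg over all genes tested, call at an adjusted p under 0.05. Errors are SE from the F statistic. CPM used TMM over all mice. Alternatives were DESeq2 1.42.0, library totals, no filter, a fit over all groups, all vehicle mice, replicate number as block, range or subset, and leaving out each mouse. Labels do not say whether the mice of a group were dosed on separate days, so p-values measure the spread between these animals.

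The members and lists were chosen with earlier results of these data known. Named are all members and, per comparison, up to 5 called genes of the 55 in each direction with the largest fold and groups that do not overlap. Other called genes of the list were named after their values were seen. Likeness was limited to genes averaging 1 CPM or more. No sample was left out. The values of 1 gene of the list are not reported here.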

Additional observations from a re-analysis of the deposited data

Results flagged for a closer look

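Within 48 combinations of gene and group, 7 had a mouse far from the rest by Dixon's 95% criterion, which by chance flags about 1 in 20 normally distributed samples. Here the values were CPM of scarce genes on a linear scale, so the 7 cannot be set against that rate. Ctrl, CIP and CIV were outside the group sizes screened. In APAP, mouse 6 had 1.61 CPM of Cd79a (next 0.763) and mouse 8 had 2.94 CPM of Mzb1 (next 0.384). In TAA, mouse 8 had 12.0 CPM of Ighm (next 9.18). In CCl4, mouse 11 had 7.05 CPM of Ighm (next 3.91) and 0.395 of Mzb1 (next 0.110). In MDA, mouse 7 had 9.66 CPM of Igkc (next 5.27). In ConA, mouse 11 had 9.79 CPM of Mzb1 (next 0.264). Mzb1 accounts for 3 of the 7.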

How the results depend on the processing

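Estimated counts of 0 to 130 for Cd79a, of at most 8.64 for Ms4a1 and of 0 in 20 mice for Mzb1 limit what can be called, and whether a scarce gene was tested depended on which mice entered the filter. The counts below are of genes called in either direction, and where a count or a direction moved the cause was not tested.

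Leaving out each mouse in turn kept 4 members called in ANIT and 4 in TAA, and 0 in APAP, GAL, ConA and the vehicle comparisons. The members called ranged from 3 to 5 in MDA (3 without Ctrl mouse 15 or 16) and from 0 to 2 in CCl4. For the 55 further genes the calls ranged from 6 to 11 in ANIT and 5 to 8 in APAP. There were 6 without ANIT mouse 3, where 2540 of 14504 genes were called, against 28.2% in the main fit. There were 5 without APAP mouse 8 (3864 of 14130 genes called, against 31.8%). In GAL 2 were called without mouse 4 (2532 of 15120 genes, against 28.5%) or mouse 7 (3127 of 15043). Where a saline mouse was left out, the control of 1 mouse was assumed to vary like the treated group.

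Same-numbered mice deviated together in none of the 4 gavage comparisons by the criterion used (every pair over 0.1): the mean correlation was 0.0396 in ANIT, 0.0563 in APAP, -0.0259 in MDA and 0.138 in TAA, where 3 of 4 pairs passed. The criterion is strict. Among shared numbers, the Ctrl mouse of the same number correlated best in 3 of 4 TAA and 3 of 4 APAP mice. The same held for 1 of 4 ANIT and 1 of 7 MDA mice. With the replicate number as a block, fewer mice entered, and the members called were 1 of 3 tested in ANIT, 3 of 3 in MDA and 2 of 4 in TAA. Of all genes 8.96% were then called in ANIT, 20.1% in MDA and 36.2% in TAA, against 28.2%, 33.8% and 50.5% in the main fits. The further genes called were 1 of 13 tested in ANIT (8.96% of all genes called), 0 of 19 in APAP (1.85%), 4 of 14 in MDA (20.1%) and 5 of 26 in TAA (36.2%). In ANIT Cd79b (-1.85, adjusted p = 0.0532) and Igkc (-1.01, 0.0517) lost the call and Cd79a was not tested, and in TAA Cd79b (0.75, 0.0920) and Igkc (0.51, 0.0636) lost it. Under the block the APAP values were -0.34 for Cd79a, -0.57 for Cd79b, -0.29 for Ighm and -0.0514 for Igkc, and Cd79b in CIP against Ctrl was -0.39. For CCl4 and ConA no block could be fitted, since each shares a single number with its saline control.

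Among mice numbered above 4, members called were 2 of 6 tested in MDA and 0 of 5 in CCl4 (32.1% of all genes called). Further genes called were 3 of 30 in APAP (20.2% of all genes called) and 5 of 26 in MDA (20.6%). Among those numbered 1 to 4, members called were 1 of 3 tested in MDA and 1 of 4 in TAA. Further genes called were 2 of 13 in ANIT (13.7% of all genes called), 1 of 22 in APAP (6.28%), 0 of 12 in MDA (10.4%) and 1 of 27 in TAA (19.4%). The APAP values were -0.39 for Cd79a and -0.0695 for Cd79b. With the number range as a covariate 4 of 24 further genes were called in ANIT (19.1% of all genes) and 0 of 5 members tested in CCl4 (31.8%). Cd79b in ConA was 0.23 with the covariate and 0.25 above number 4. Without gavage mice numbered above 12, 3 of 3 members tested were called in MDA, beside 31.9% of all genes.

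DESeq2 called 1 of 7 members tested in APAP (28.1% of all genes) and 16 of 47 further genes in TAA (40.7%). The fit over all groups called 1 of 6 members tested in APAP (28.6%), 16 of 47 further genes in MDA (23.7%) and 14 of 47 in TAA (41.1%). It put Cd79b in APAP at -0.0037. Without the filter 15 of 51 further genes were called in TAA (33.2%), 2 of 52 in GAL (12.3%) and 0 of 7 members in CCl4 (18.5%). Cd79b in GAL was then 0.0087. Library totals gave 0 of 5 members tested in CCl4 (36.9%) and 8 of 36 further genes in GAL (41.0%). The GAL values were 0.75 for Cd79b, 0.66 for Ighm and 0.38 for Igkc, and Ighm in ConA was -0.0433. All 17 vehicle mice as the control gave 2 members in CCl4, 1 in GAL and 1 in ConA, 9 of 30 further genes in GAL (52.5%), GAL values of 0.20 for Cd79b, 0.14 for Ighm and 0.55 for Igkc, and -0.0217 for Igkc in APAP.

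Directions that turned when 1 mouse was left out belonged to values that were not called. The ranges were -0.0516 to 0.50 for Cd79a, -0.30 to 0.25 for Cd79b, -0.0597 to 0.50 for Ighm and -0.15 to 0.27 for Igkc in APAP, and -1.99 to 1.40 for Jchain in CCl4. In GAL they were -0.32 to 0.13 for Cd79b, -0.47 to 0.41 for Ighm and -1.55 to 1.93 for Jchain, and in ConA -0.47 to 0.36 for Cd79b. Between vehicles they were -0.12 to 0.61 for Ighm, -1.88 to 1.42 for Jchain and -5.58 to 0.25 for Mzb1 in CIP, and -0.0839 to 0.92 for Jchain and -5.67 to 0.76 for Mzb1 in CIV. Igkc between the Ctrl ranges went from -0.48 to 0.0145.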

Other observations

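Pax5, the transcription factor that maintains B cell identity, stood apart in single mice. Its highest Ctrl value was 11.4 CPM beside a Ctrl median of 0.0585, the highest TAA mouse had 7.11 CPM beside a median of 0.728, and the highest CCl4 mouse 3.98 beside a median of 0.0769. The Cd79a and Cd79b values of Ctrl reached at most 1.06 and 1.99 CPM. Pax5 was at or under 0.268 estimated counts in all 4 ANIT mice.

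Cxcl13 ranged from 0.214 to 7.61 CPM in ANIT and from 0.115 to 23.2 in APAP, against 0.444 to 3.08 in Ctrl. Ccr7 stood at 0.448 to 0.935 CPM in the 4 GAL mice, with 0.226 and 0.388 in CIP. It was not called against CIP (log2 fold change 1.16 ± 0.55, edgeR adjusted p = 0.158) and was higher than in all 17 vehicle mice (1.89 ± 0.45, adjusted p = 0.0011), where 25.1% of all genes were called higher.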
